A study of Homo sapiens with 7 samples.

Results

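The genes of HLA class I antigen presentation were 10 genes of 58174 in the deposited table. They were chosen by name and by no rule on their values, though with earlier results of these data known. Of them, 9 are described. These were the class I heavy chains HLA-B, HLA-C and HLA-E, their light chain B2M, the peptide transporter subunits TAP1 and TAP2, the loading factor TAPBP (tapasin), and the inducible proteasome subunits PSMB8 and PSMB9. The table writes the hyphen of these symbols as a dot (HLA.B), as do the plots. Total RNA was sequenced from Huh-7, an established human hepatocellular carcinoma line, 72 h after transfection. The control cells received a control siRNA (siC, 3 libraries), and the others an siRNA pool against IGF2BP1 (siIGF2BP1, called siImp1 in the sample titles, 4 libraries). IGF2BP1 is an RNA-binding protein of fetal tissue and tumors, and the study asked which transcripts depend on it. Both groups were the same line, transfected and collected alike, so siC cells were not untreated cells. Nothing in the labels says whether libraries of a group came from separate cultures, and p-values then measure only the spread between these libraries, which may be technical.

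Class I molecules show peptides from inside the cell to cytotoxic T cells. Proteasomes cut proteins into peptides, the TAP1/TAP2 transporter carries these into the endoplasmic reticulum, and tapasin holds the empty heavy chain with B2M beside the transporter until a peptide is bound. Interferon raises most of these genes together, with NLRC5 as a transactivator of class I promoters, and hepatocytes are known for little class I at rest.

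The promoters shown are those of B2M, HLA-B, HLA-C, TAPBP and TAP1, since these members differed in the direction of their siIGF2BP1 to siC difference or in whether they were detected at all. They were taken from RefSeq (GRCh38.p14) and run from 250 bases before to 50 after the annotated start. Of the 9 genes, 8 were matched, with 10 starts. The windows are chr15:44711267-44711566 (B2M, plus strand), chr6:31357130-31357429 (HLA-B, minus), chr6:31272043-31272342 (HLA-C, minus), chr6:33314029-33314328 (TAPBP, minus) and chr6:32853655-32853954 (TAP1, minus, the second of 2 starts). Capitals mark matches, on either strand, to any of 4 motifs: GAAANNGAA, the core of interferon response elements; the CCAAT box; TGACG, the core of cyclic AMP response elements; and the consensus of NF-kappaB sites. Matches that overlap run together, as the GAAANNGAA pairs of B2M, TAPBP and TAP1 do.
B2M: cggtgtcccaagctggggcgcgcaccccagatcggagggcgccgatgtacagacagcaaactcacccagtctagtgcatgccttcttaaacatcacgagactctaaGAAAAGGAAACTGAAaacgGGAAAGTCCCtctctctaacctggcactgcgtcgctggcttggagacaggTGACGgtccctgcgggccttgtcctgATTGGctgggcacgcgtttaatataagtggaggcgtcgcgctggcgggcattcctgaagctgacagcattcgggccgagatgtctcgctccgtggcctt
HLA-B: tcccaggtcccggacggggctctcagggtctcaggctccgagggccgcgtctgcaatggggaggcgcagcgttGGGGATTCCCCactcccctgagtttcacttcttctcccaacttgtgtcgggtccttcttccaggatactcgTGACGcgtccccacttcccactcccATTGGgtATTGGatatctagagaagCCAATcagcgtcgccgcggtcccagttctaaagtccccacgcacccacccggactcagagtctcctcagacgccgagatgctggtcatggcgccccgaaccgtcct
HLA-C: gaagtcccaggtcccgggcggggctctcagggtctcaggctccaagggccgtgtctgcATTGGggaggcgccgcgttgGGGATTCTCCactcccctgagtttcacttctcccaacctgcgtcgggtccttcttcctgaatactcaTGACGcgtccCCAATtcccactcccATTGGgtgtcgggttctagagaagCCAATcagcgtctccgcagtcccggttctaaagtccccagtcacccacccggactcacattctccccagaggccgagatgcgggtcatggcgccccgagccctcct
TAPBP: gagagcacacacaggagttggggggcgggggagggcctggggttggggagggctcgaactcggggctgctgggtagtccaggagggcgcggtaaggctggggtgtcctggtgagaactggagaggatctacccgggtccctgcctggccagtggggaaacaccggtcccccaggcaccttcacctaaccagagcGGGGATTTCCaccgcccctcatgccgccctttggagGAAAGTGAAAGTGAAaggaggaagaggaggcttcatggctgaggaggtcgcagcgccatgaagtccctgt
TAP1: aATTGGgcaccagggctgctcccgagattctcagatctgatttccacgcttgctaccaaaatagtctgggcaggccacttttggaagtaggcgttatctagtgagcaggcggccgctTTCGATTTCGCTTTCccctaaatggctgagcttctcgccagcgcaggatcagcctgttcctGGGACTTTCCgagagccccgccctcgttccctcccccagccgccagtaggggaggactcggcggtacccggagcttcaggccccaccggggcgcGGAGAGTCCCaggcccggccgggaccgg

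HLA-B and HLA-C had near-copies of a promoter, with 269 of 304 aligned positions identical (88.5%), against 49.4% between HLA-B and B2M, which lies on another chromosome. Both held TGACG (106 and 105 bases before the start), the CCAAT box (56 bases before it in each) and the NF-kappaB consensus (177 and 172 bases before it). B2M held all 4 motifs, with its TGACG 75 bases and its CCAAT box, on the other strand, 49 bases before the start. TAPBP held neither TGACG nor a CCAAT box in this window, but 2 overlapping copies of GAAAGTGAA 20 and 14 bases before the start. The GAAANNGAA motif was found in 5 of the 10 windows (1 each of B2M, PSMB8, TAP1, TAP2 and TAPBP), and in 8.11% of 35116 promoters of the same length. This pattern has a fixed spacing, so its absence from HLA-B and HLA-C does not mean that they lack an interferon response element. The TAP1 start that is not shown matched none of the 4 motifs. TGACG was found in 6 of 10 windows and 24.6% of promoters, the CCAAT box in 5 of 10 and 34.6%, and the NF-kappaB consensus in 5 of 10 and 11.3%. These are matches of letters, and no binding was measured here.

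The libraries held from 12826550 to 33212205 reads on genes. IGF2BP1 itself was 81.9, 80.4 and 84.4 FPKM in siC and 15.6, 15.7, 16.6 and 15.3 FPKM in siIGF2BP1, or 19.2% of siC (-2.37 on the log2 scale, Benjamini-Hochberg-adjusted p = 1.16e-05 by limma). FPKM values take gene length and library size into account, so that levels are per length. Hepatocyte markers were high in every library (12 genes, summed to 6320 to 7803 FPKM in siC and 7064 to 7246 in siIGF2BP1). Of 14 markers of blood, vessel and stroma, 7 had at most 3 reads in every library, and MS4A1, FCGR3A and NKG7 had none. However, 4 averaged 1 FPKM or more: LYZ (137 FPKM), PECAM1 (2.93 FPKM), CD14 (1.67 FPKM) and COL1A2 (1.18 FPKM). Their log2 changes ran from -0.37 to 1.33, and 0 passed the test described below (3.93% of all tested genes did). The list of 14 summed to 151 to 168 FPKM in siC and 120 to 136 in siIGF2BP1, nearly all of it LYZ. Its part in the results was not tested. The siC replicate 3 stood apart from its group: it correlated with siC replicates 1 and 2 at r = 0.916 and 0.929, whereas these correlated at 0.971, and its difference from the other siC libraries followed the GC content of the gene (Spearman rho = -0.43 across genes, against 0.43 and 0.30 in siC replicates 1 and 2). Within the siIGF2BP1 group that rho ran from -0.39 (replicate 2) to 0.26 (replicate 3). It was the lowest of the 7 libraries for HLA-C, HLA-E and B2M, so their values are given with and without it.

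In all libraries B2M had by far the highest measured level of the genes described. It averaged 21.3 FPKM, 18.1 times TAPBP at 1.18 FPKM. HLA-E followed at 0.721 FPKM, HLA-C at 0.338 FPKM and HLA-B at 0.108 FPKM. Each of these was above the next in 7 of 7 libraries, and HLA-B was above TAP2 (0.0391 FPKM) in 7 of 7 too. The ranges over all libraries were separate from B2M down to HLA-E, and overlapped from HLA-E downwards. TAP2, PSMB8 (0.0331 FPKM), TAP1 (0.0114 FPKM) and PSMB9 (0.0106 FPKM) could not be ordered: TAP2 was above PSMB8 in 4 of 7 libraries, PSMB8 above TAP1 in 5 of 7 and TAP1 above PSMB9 in 2 of 7.

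**Figure D1:**
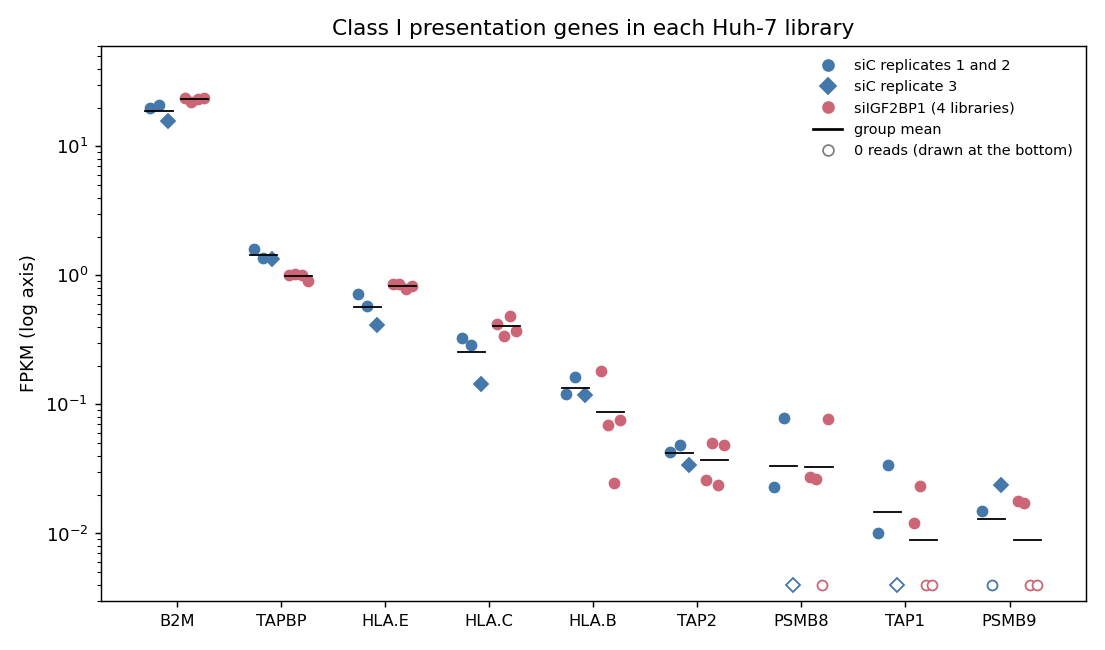
Level of each member in every library, in FPKM on a log axis, with blue for siC (a diamond for replicate 3), red for siIGF2BP1 and a bar for the group mean; open symbols at the bottom are libraries with 0 reads. B2M lies near 20 FPKM, TAPBP between 0.899 and 1.60, and TAP2, PSMB8, TAP1 and PSMB9 below 0.1.

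Much of the sequence of these genes occurs more than once in the genome build. Of the 9 genes, 8 lie on chromosome 6 between 30489509 and 33314284 (GRCh38, GENCODE release 44), in the major histocompatibility complex, and B2M lies on chromosome 15 (44711358 to 44718851). The genome build names 261 alternate sequences, 16 of them for chromosome 6, which repeat stretches of the chromosomes in other versions. For each gene, the share of 75-base windows of its exons was counted that occur letter for letter on an alternate sequence. This share was 60.7% for HLA-B, 84.5% for HLA-C, 91.2% for B2M and 99.2% for TAP2, and 100% for HLA-E, TAP1, TAPBP, PSMB8 and PSMB9. A read that falls in such a window has more than 1 place in a genome that includes these sequences. Whether the authors' index included them is not given in the sources used here.

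Protein-coding genes of chromosome 6 with at least 50% of windows on an alternate sequence (177 genes) had a median of 0.0938 FPKM, 26.6% were listed at 0, and 3 reached 10 FPKM. Those with no such window (753 genes) had a median of 2.42 FPKM, 11.3% were listed at 0, and 28.4% reached 10 FPKM. Over all chromosomes the medians were 0.0566 FPKM (770 genes) and 1.47 FPKM (16190 genes). RPS18, a ribosomal protein gene of the same region with 100% of its windows repeated, was measured at 50.5 FPKM. The median of 81 ribosomal protein genes was 136 FPKM, and RPS18 ranked 19 from the lowest, so other such genes lay lower still. Among the 177 genes the median share of windows was 100%, which left little range for a correlation of level with share. That correlation (Spearman rho = 0.0054 across genes) is therefore given as a description only. B2M, with 91.2% of its windows repeated, averaged 21.3 FPKM. The part of repeated sequence in the levels of the members was not tested, and a low value of a member cannot be read as little transcript. Comparisons between siC and siIGF2BP1 are within a gene and were made on the same counted exons.

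**Figure D2:**
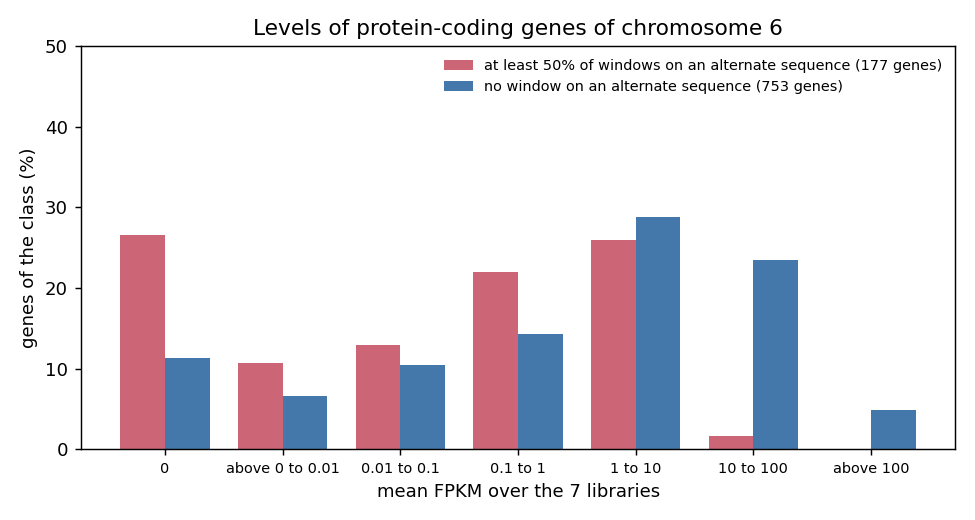
Protein-coding genes of chromosome 6 by mean FPKM over the 7 libraries (x axis, classes of level), as a percent of genes of the class (y axis), for 177 genes with at least 50% of windows on an alternate sequence (red) and 753 genes with none (blue). The red class has 26.6% of genes at 0 and 3 genes at 10 FPKM or more.

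Upon IGF2BP1 depletion, the means of HLA-C, HLA-E and B2M were higher and those of TAPBP, HLA-B and, at a few reads, TAP1, TAP2 and PSMB9 lower, and none of the genes tested passed the test. The test was limma on log2(FPKM + 0.1) over 14839 genes that averaged 1 FPKM or more, with a threshold of 0.01 on the adjusted p. Of the 9 genes, 2 had such a level (B2M and TAPBP), and 0 were past the threshold, where 3.93% of all tested genes were (2.28% lower and 1.65% higher). TAPBP (lower) and B2M (higher) had an unadjusted p under 0.05, as did 25.9% of all tested genes. A second test, limma-voom on the reads, put neither of these 2 past the threshold. The siIGF2BP1 libraries all lay below siC for 1 member (TAPBP) and all above for 3 (HLA-C, HLA-E and B2M), against 15.1% and 11.9% of the tested genes (27% together), among which HLA-C and HLA-E were not counted for their low level. In these bulk libraries, fewer cells with a transcript and less transcript per cell cannot be told apart.

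HLA-C (ENSG00000204525, chromosome 6, 31268749 to 31272130, minus strand) is a classical heavy chain, which presents peptides to T cells, and also serves as a ligand of killer cell receptors. It was 0.329, 0.286 and 0.145 FPKM in siC (18, 23 and 5 reads) and 0.418, 0.340, 0.482 and 0.369 FPKM in siIGF2BP1 (19, 16, 16 and 12 reads). Every siIGF2BP1 library lay above every siC library, but siC replicate 3 lay far below its group, at 47.1% of the mean of the other two. Pooled reads gave 0.271 FPKM (exact Poisson 95% interval 0.199 to 0.362, counting error only) in siC and 0.398 FPKM (0.306 to 0.509) in siIGF2BP1, and these intervals overlap. The siIGF2BP1 mean was 159% of siC, and 131% without siC replicate 3. With no filter on level, the difference on the log2(FPKM + 0.1) scale was 0.54 (limma, adjusted p = 0.455).

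HLA-E (ENSG00000204592, chromosome 6, 30489509 to 30494194, plus strand) is a nonclassical heavy chain that presents leader peptides of other class I chains to natural killer cells. It was 0.724, 0.577 and 0.415 FPKM in siC (47, 55 and 17 reads) and 0.853, 0.860, 0.786 and 0.8287 FPKM in siIGF2BP1 (46, 48, 31 and 32 reads). The 4 siIGF2BP1 libraries lay close together and above all siC libraries, which were spread more widely. The means were 0.572 ± 0.154 (SD, n = 3) and 0.832 ± 0.0334 FPKM (SD, n = 4), so that siIGF2BP1 was 145% of siC, and 128% without siC replicate 3. The difference was 0.50 on the log2 scale, with no filter on level (limma, adjusted p = 0.332).

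HLA-B (ENSG00000234745, chromosome 6, 31353872 to 31367067, minus strand), a classical heavy chain too, was hardly measured. It had 8, 16 and 5 reads in siC (0.120, 0.164 and 0.119 FPKM) and 10, 4, 1 and 3 reads in siIGF2BP1 (0.181, 0.0699, 0.0247 and 0.0758 FPKM). The groups overlapped, and the siIGF2BP1 libraries held both the highest and the lowest value. Pooled reads gave 0.141 FPKM (95% Poisson interval 0.0941 to 0.202) in siC and 0.0935 FPKM (0.0554 to 0.148) in siIGF2BP1, and a difference was not detectable at this depth. HLA-B shares 1421 exonic bases with the pseudogene DHFRP2 on its own strand.

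B2M (ENSG00000166710) codes for beta-2-microglobulin, the light chain that every class I heavy chain needs for its exit to the cell surface. It was 19.8, 21.0 and 15.7 FPKM in siC and 23.5, 22.0, 23.3 and 23.8 FPKM in siIGF2BP1, with 1318 to 4088 reads per library. All siIGF2BP1 libraries lay above all siC libraries, the nearest being siC replicate 2 and siIGF2BP1 replicate 2. The means were 18.8 ± 2.76 (SD, n = 3) and 23.1 ± 0.790 FPKM (SD, n = 4). The fitted difference was 0.31 on the log2 scale (SE 0.10, 95% interval 0.061 to 0.55, adjusted p = 0.114 by limma). The siIGF2BP1 mean was 123% of siC, and 113% without siC replicate 3, which was at 77.1% of the mean of siC replicates 1 and 2. Without that library it was 0.18 (adjusted p = 0.0406 by limma). In FPKM, the level of HLA-E relative to B2M was 2.64% to 3.65% in siC and 3.37% to 3.91% in siIGF2BP1, which overlap. That of HLA-C was 0.921% to 1.66% in siC and 1.55% to 2.07% in siIGF2BP1, which overlap as well.

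**Figure D3:**
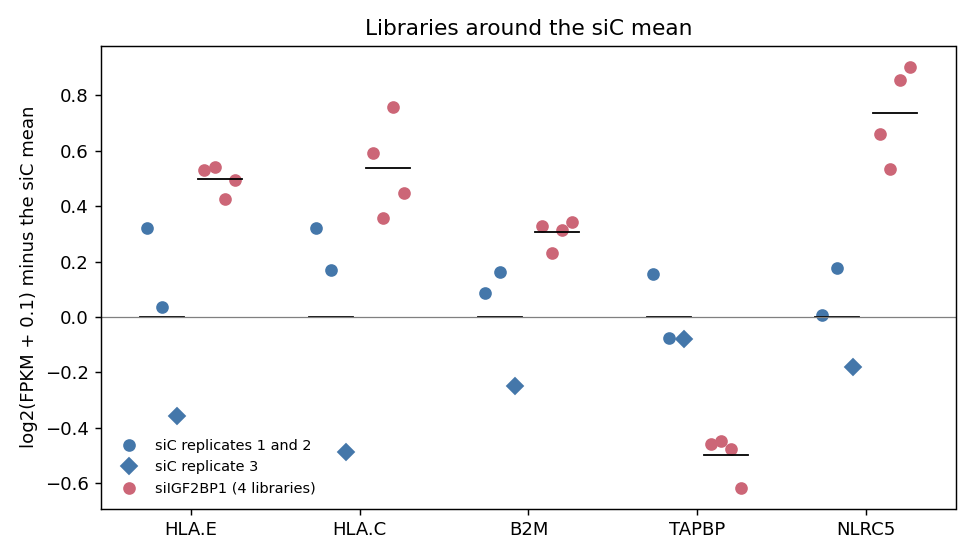
Each library's log2(FPKM + 0.1) minus the siC mean, for 4 members and for NLRC5, with blue for siC (a diamond for replicate 3), red for siIGF2BP1 and a bar for the group mean. The siIGF2BP1 libraries lie above all siC libraries for HLA.E, HLA.C, B2M and NLRC5 and below them for TAPBP, and siC replicate 3 is the lowest library except for TAPBP.

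TAPBP (ENSG00000231925, chromosome 6, 33299694 to 33314284, minus strand) was the member with all siIGF2BP1 libraries below all siC libraries. It was 1.60, 1.35 and 1.35 FPKM in siC (177, 219 and 94 reads) and 1.02, 1.02, 1.00 and 0.899 FPKM in siIGF2BP1 (93, 97, 67 and 59 reads). No siIGF2BP1 library reached a siC library, and both groups were tight apart from the higher siC replicate 1. The means were 1.44 ± 0.145 (SD, n = 3) and 0.984 ± 0.0576 FPKM (SD, n = 4). The fitted difference was -0.50 on the log2 scale (SE 0.16, 95% interval -0.89 to -0.11, adjusted p = 0.105 by limma). The siIGF2BP1 mean was 68.6% of siC, and 66.6% without siC replicate 3. The difference was thus as large without that library, which did not lie apart for this gene. By limma-voom on the reads it was -0.53 (adjusted p = 0.0202). TAPBP shares 1397 exonic bases with a long noncoding RNA on the other strand, and the strand setting of the counting is not given in the sources used here.

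Tapasin was lower relative to the light chain, in a comparison chosen after its values were seen and given without a test. TAPBP relative to B2M, in FPKM, was 8.08%, 6.45% and 8.59% in siC and 4.32%, 4.65%, 4.29% and 3.78% in siIGF2BP1. The groups did not overlap, with every siIGF2BP1 library lower. TAPBPL, a relative of tapasin that edits peptides, was 1.05 ± 0.363 FPKM in siC (SD, n = 3) and 1.16 ± 0.115 FPKM in siIGF2BP1 (SD, n = 4), which differ by 0.18 on the log2 scale (adjusted p = 0.73 by limma).

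The direction of B2M and TAPBP held in every setting tried. Their log2 changes ran from 0.18 to 0.39 for B2M (16 settings) and from -0.60 to -0.29 for TAPBP (15), and none was past the threshold. The smallest adjusted p by limma in these settings was 0.0186 for B2M and 0.0202 for TAPBP.

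**Figure D4:**
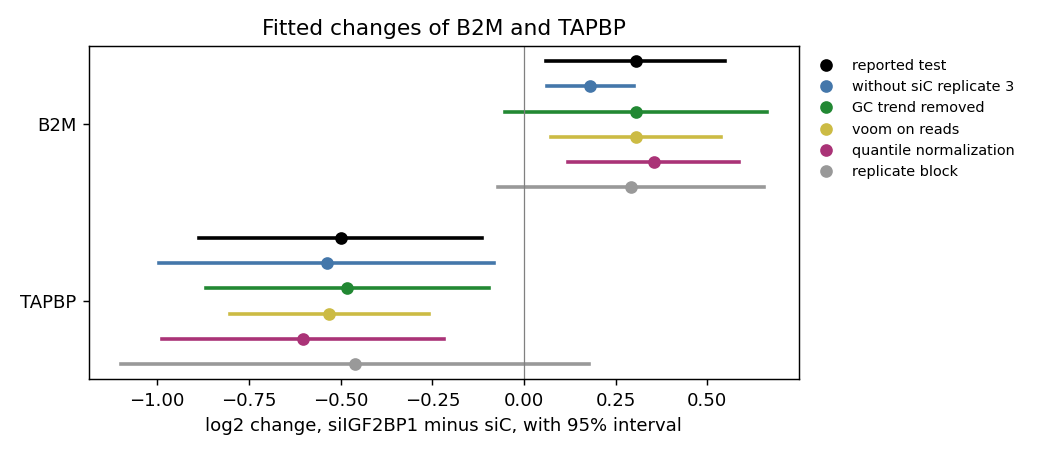
Log2 change of B2M and TAPBP (x axis, siIGF2BP1 minus siC) with its 95% interval, under the reported test and 5 alternatives. The points stay right of 0 for B2M and left of 0 for TAPBP, and B2M lies nearest to 0, at 0.18, without siC replicate 3.

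The transporter was barely detected. TAP1 (ENSG00000168394, chromosome 6, 32845209 to 32853816, minus strand), which binds peptides together with TAP2, had 1, 5 and 0 reads in siC and 1, 2, 0 and 0 reads in siIGF2BP1. The 3 libraries without a read allow up to 0.0476 FPKM (siC replicate 3), 0.0495 and 0.0505 FPKM (siIGF2BP1 replicates 3 and 4), taking 3 reads as the limit that a count of 0 allows. TAP2 (ENSG00000204267, chromosome 6, 32821833 to 32838739, minus strand) had reads in every library, 6, 10 and 3 in siC and 3, 6, 2 and 4 in siIGF2BP1. Its levels were 0.0430, 0.0489 and 0.0341 FPKM in siC and 0.0259, 0.0501, 0.0236 and 0.0482 FPKM in siIGF2BP1, which overlap. For neither gene could a difference be detected at this depth. TAP2 shares 2023 exonic bases with a protein-coding gene model on its own strand, and TAP1 shares 672 with PSMB8-AS1 on the other.

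The inducible proteasome subunits PSMB8 and PSMB9 replace the catalytic subunits PSMB5 and PSMB6 in the immunoproteasome, and PSMB10, which lies on another chromosome, replaces PSMB7. PSMB8 (ENSG00000204264, chromosome 6, 32840717 to 32844679, minus strand) had 1, 5 and 0 reads in siC and 1, 1, 0 and 2 in siIGF2BP1. PSMB9 (ENSG00000240065, chromosome 6, 32844136 to 32859851, plus strand) had 1, 0 and 1 reads in siC and 1, 1, 0 and 0 in siIGF2BP1. In no library did PSMB8 exceed 0.0778 FPKM or PSMB9 0.0236 FPKM, values of a few reads at most. PSMB8 shares 602 exonic bases with PSMB8-AS1 and 139 with PSMB9, all on the other strand.

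PSMB10 allowed a measurement without windows on alternate sequences, since 0% of its windows, and 0% of those of PSMB5, PSMB6 and PSMB7, occurred there. Copies elsewhere in the genome were not looked for. PSMB10 was 0.840, 0.792 and 0.549 FPKM in siC and 0.715, 1.01, 0.896 and 0.665 FPKM in siIGF2BP1, and the groups overlapped. Its constitutive counterpart PSMB7 was 132 ± 28.3 FPKM in siC (SD, n = 3) and 114 ± 6.87 FPKM in siIGF2BP1 (SD, n = 4), so that PSMB10 was 0.566%, 0.533% and 0.552% of PSMB7 in siC and 0.633%, 0.962%, 0.760% and 0.553% in siIGF2BP1. The ratio overlapped between groups in 1 library, siIGF2BP1 replicate 4. By exact permutation tests (two-sided, on log2 values, smallest possible p = 0.0571), the difference in log2 ratio, with 0.1 FPKM added to each level, was 0.35 for PSMB10 to PSMB7 (p = 0.114), 0.36 for PSMB8 to PSMB5 (p = 0.343) and 0.20 for PSMB9 to PSMB6 (p = 0.286). Adjusted over the 3 pairs, p was 0.343 for each. PSMB8 and PSMB9 had at most 5 reads in a library and lay below the added 0.1 FPKM throughout, so that their ratios on this scale mostly carry the values of PSMB5 and PSMB6. With nothing added, the PSMB9 to PSMB6 ratio averaged 0.0123% in siC and 0.01002% in siIGF2BP1, the opposite direction.

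PSMB5, the constitutive subunit with chymotrypsin-like activity, was 133 ± 1.33 FPKM in siC (SD, n = 3) and 104 ± 4.13 FPKM in siIGF2BP1 (SD, n = 4), with no overlap. Its difference of -0.36 on the log2 scale missed the threshold narrowly (adjusted p = 0.0117 by limma), and passed it under 3 of 16 settings. PSMB6 was 111 ± 11.4 FPKM in siC (SD, n = 3) and 92.4 ± 5.74 FPKM in siIGF2BP1 (SD, n = 4), or -0.26 on the log2 scale (adjusted p = 0.131 by limma). It passed under 1 of 16 settings. PSMB7 differed by -0.19 (adjusted p = 0.492 by limma), with siC replicate 3 at 99.4 FPKM and siC replicates 1 and 2 at 148 FPKM each. Without siC replicate 3 its difference was -0.38 (adjusted p = 0.00751 by limma), and it passed under 2 of 16 settings. Of the 14 genes of the constitutive core particle, 0 passed the test in either direction, while an unadjusted p under 0.05 was reached by 5 lower and 0 higher (14.8% lower and 11% higher over all genes tested), with a median log2 change of -0.17 beside -0.017 over all genes tested.

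**Figure D5:**
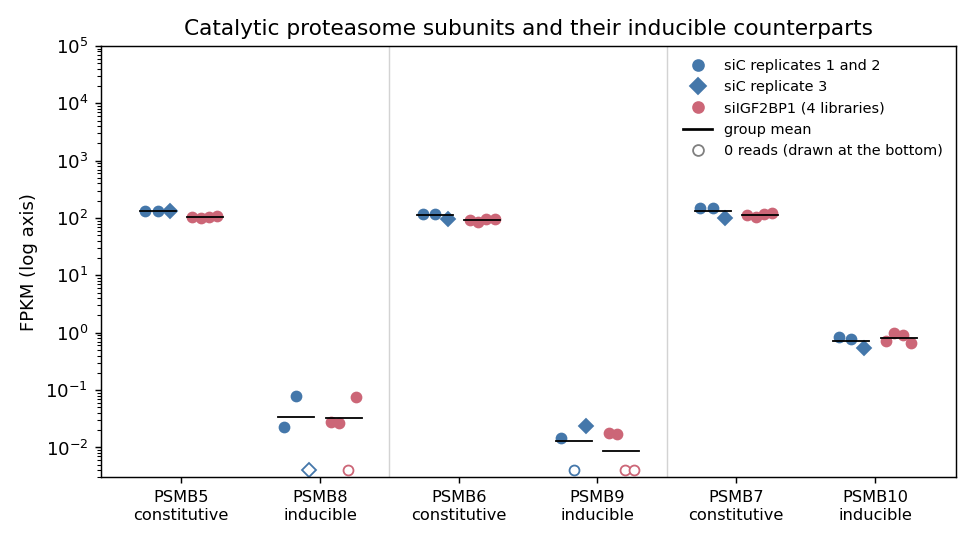
Constitutive catalytic subunits of the proteasome beside the inducible subunit that replaces each, in FPKM per library on a log axis, with blue for siC (a diamond for replicate 3), red for siIGF2BP1, a bar for the group mean and open symbols for 0 reads. PSMB5, PSMB6 and PSMB7 lie near 100 FPKM, PSMB10 between 0.549 and 1.01, and PSMB8 and PSMB9 below 0.1.

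Further genes of peptide supply and loading outside the members were measured well. Of 15 genes, 13 were tested, 0 passed in either direction, while an unadjusted p under 0.05 was reached by 1 lower and 2 higher (median log2 change of 0.063). CANX, named after its values were seen, was 180 ± 4.77 FPKM in siC (SD, n = 3) and 230 ± 3.28 FPKM in siIGF2BP1 (SD, n = 4), with no overlap. Its difference of 0.35 on the log2 scale missed the threshold narrowly (adjusted p = 0.0115 by limma). ERAP1, which trims peptides in the endoplasmic reticulum, was 9.59 ± 0.507 FPKM in siC (SD, n = 3) and 10.9 ± 0.205 FPKM in siIGF2BP1 (SD, n = 4), or 0.18 on the log2 scale (adjusted p = 0.104 by limma). CALR, the chaperone that joins tapasin in the loading complex, differed by -0.0065 on that scale (adjusted p = 0.991 by limma), and its sign depended on the setting. PDIA3, the disulfide isomerase bound to tapasin, differed by 0.14 (adjusted p = 0.758 by limma).

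Of 24 regulators of class I transcription and interferon signalling, the siIGF2BP1 libraries all lay below siC for 7 and all above for 2 (15.1% and 11.9% over all tested genes). The 2 above were IFNGR2, a chain of the interferon gamma receptor (limma, adjusted p = 0.352), and NLRC5, the transactivator of class I genes. NLRC5 was 0.0740, 0.0958 and 0.0528 FPKM in siC (20, 38 and 9 reads) and 0.174, 0.151, 0.213 and 0.224 FPKM in siIGF2BP1 (39, 35, 35 and 36 reads). Every siIGF2BP1 library lay well above every siC library, though all values were low and NLRC5 was not among the genes tested. With no filter on level the difference was 0.74 on the log2(FPKM + 0.1) scale (limma, adjusted p = 0.146). Pooled reads gave 0.0800 FPKM (95% Poisson interval 0.0620 to 0.102) in siC and 0.186 FPKM (0.157 to 0.218) in siIGF2BP1, counting error only. The siIGF2BP1 mean was 257% of siC, and 224% without siC replicate 3. None of its windows occurred on an alternate sequence.

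IRF1, an interferon-induced activator of class I genes, was 0.784 ± 0.0340 FPKM in siC (SD, n = 3) and 0.851 ± 0.144 FPKM in siIGF2BP1 (SD, n = 4), which overlap. Of the 24 regulators, 21 were tested and 0 passed, while an unadjusted p under 0.05 was reached by 6 lower and 0 higher (14.8% lower and 11% higher over all tested genes), with a median log2 change of -0.093. Named after their values were seen, NFYA, a subunit of the factor that binds the CCAAT box, was 26.9 ± 2.36 FPKM in siC (SD, n = 3) and 20.9 ± 0.687 FPKM in siIGF2BP1 (SD, n = 4), or -0.36 on the log2 scale (adjusted p = 0.0234 by limma). RFXANK, a subunit of the RFX complex of class I and II promoters, was 24.7 ± 1.07 and 20.5 ± 0.948 FPKM (SD, n = 3 and n = 4), or -0.26 (adjusted p = 0.0397 by limma). Their partner subunits overlapped between the groups. By limma, NFYB differed by -0.080 (adjusted p = 0.683) and NFYC by -0.028 (0.839), and RFX5 by -0.093 (0.694) and RFXAP by -0.065 (0.888). The smallest adjusted p among the regulators was 0.0216 by limma, for STAT2, also named after its values were seen. STAT2 was 5.58 ± 0.765 FPKM in siC (SD, n = 3) and 3.86 ± 0.101 FPKM in siIGF2BP1 (SD, n = 4), or -0.51 on the log2 scale, with no overlap. Of 18 interferon-induced genes outside presentation, 4 were tested, 1 passed higher and 0 lower. An unadjusted p under 0.05 was reached by 2 lower and 1 higher, and the lowest log2 change was -0.51. The gene past the threshold was IFI6, an interferon-induced mitochondrial protein, at 1.80, 2.24 and 1.76 FPKM in siC and 7.02, 5.12, 8.29 and 7.21 FPKM in siIGF2BP1 (1.77 on the log2 scale, adjusted p = 0.00162 by limma). It passed in 11 of 15 settings, and missed the threshold without siC replicate 1 (adjusted p = 0.0107 by limma), siIGF2BP1 replicate 1 (0.0109) or siIGF2BP1 replicate 4 (0.0104). With the replicate number as a block it missed by more (adjusted p = 0.117 by limma). The median log2 change of the 4 tested genes was -0.090.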

How the data were processed

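Total RNA was depleted of rRNA, made into directional libraries and sequenced on a NextSeq 500 by the authors. According to the study's methods and the submitters' processing notes, the authors clipped reads (Cutadapt 1.14), aligned them with HISAT2 (2.1.0) to GRCh38, processed alignments with SAMtools (1.5), counted reads per gene with featureCounts (1.5.3, Ensembl release 89) and normalized by TMM with edgeR (3.18.1). The deposited values are FPKM per gene and library. The table also holds the authors' fold changes, p-values and FDR, which were not used. Groups were taken from sample titles.

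FPKM times length were whole multiples of 1 read (tolerance 0.01) for 100% of values in each library, which gave reads and depths of 12826550 to 33212205. Counting intervals are exact Poisson.

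Genes averaging 1 FPKM or more were tested by limma (3.58.1, R 4.3.3) on log2(FPKM + 0.1), with its trend option, two-sided, with Benjamini-Hochberg adjustment over 14839 genes and a threshold of 0.01. This scale understates changes of genes with low values. On simulated reads the test called 83 of 95 genes changed 4-fold, 32 of 93 changed 2-fold and 1 of 14634 left unchanged (14822 tested). The simulation gave every gene and library the same dispersion, with no library apart and no GC trend. These rates therefore need not hold for the real libraries. Deviations from the group means gave no sign that replicate numbers pair the libraries. Same-numbered libraries deviated with r = -0.026, -0.12 and -0.11, where all pairs ran from -0.17 to 0.20. With so few libraries this cannot exclude a shared batch, and the labels name none.

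The members, the lists and the motifs were chosen with earlier results of these data known. The members were named, with IGF2BP1, 10 further genes of the pathway and list genes past the threshold. A member, a regulator and the genes most alike in pattern are not reported here. TAPBPL, CANX, RPS18, HLA-H, NFYA, NFYB, NFYC, RFXANK, RFX5, RFXAP, STAT2 and IFNGR2 were chosen after their values were seen. So were the marker genes named and the ratios to B2M. The exon windows were compared with the hg38 sequence. Alternatives were another pseudocount, filter, threshold or scaling, limma-voom on the reads, array weights, removal of a GC trend, a replicate block and leaving out each library.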

Additional observations from a re-analysis of the deposited data

How the results depend on the processing

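In every setting run, 0 of the genes described that were tested passed the threshold. These were B2M and TAPBP in most settings, B2M alone with a mean of at least 5 FPKM, and all 9 with no filter on level. Over all genes, 338 were lower and 245 higher past it. These counts were 206 and 146 with no filter on level, 1010 and 703 at a threshold of 0.05, and 1722 and 1022 with array weights, which give each library a weight of its own. With a GC trend removed from each library, 499 genes were lower and 394 higher. Leaving out 1 library gave 53 to 988 genes lower and 66 to 533 higher, with the highest counts (988 and 533) without siC replicate 3, the library that stood apart, and at most 109 and 87 without any other. With the replicate number as a block, 0 genes passed in either direction (an unadjusted p under 0.05 was reached by 1315 lower and 1074 higher), and the log2 changes were 0.29 for B2M (limma, adjusted p = 0.393) and -0.46 for TAPBP (0.440). Whether the numbers pair these libraries is not given in the labels, and their deviations showed no sign of it. The causes of these shifts were not tested.

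Among other genes named, the sign turned for CALR with median centring (0.023), quantile normalization (0.25), limma-voom (0.0044), the GC trend removed (0.011) and between -0.28 and 0.14 on leaving out libraries, and for PDIA3 between -0.012 and 0.36. Depth limits HLA-B, TAP1, TAP2, PSMB8 and PSMB9 most, with at most 16 reads in any library. HLA-B, HLA-C, HLA-E, the transporter and the inducible subunits lay under the filter, and were recomputed only with another pseudocount, no filter or a library left out.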

Other observations

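Other class I and class I-like genes, among them the pseudogenes HLA-H, HLA-J, HLA-K and HLA-L, were mostly low. Of 17 genes, 3 were tested, 0 passed in either direction, and 5 (HLA-F, HLA-G, HLA-J, MICA and CD1D) were listed at 0 in all 7 libraries. The pseudogene HLA-H averaged 3.94 FPKM (36 to 156 reads per library), above HLA-E (0.721 FPKM) and the other heavy chains described. It was 3.77 ± 1.20 FPKM in siC (SD, n = 3) and 4.06 ± 0.719 FPKM in siIGF2BP1 (SD, n = 4), which overlap (adjusted p = 0.774 by limma). For HLA-F, 0 reads allow up to 0.0102 FPKM over the siC libraries and 0.0109 FPKM over the siIGF2BP1 libraries. On an alternate sequence lay 93.7% of the windows of HLA-F, 91.8% of HLA-G and 96.2% of MICA. CD1D had none of its windows there and was listed at 0 all the same.

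Of 12 genes of class II presentation, 8 had at most 3 reads in every library and 4 had none, and the only tested one was not past the threshold. Of the 12 hepatocyte markers, 1 passed higher and 0 lower, while 5 lower and 2 higher had an unadjusted p under 0.05. The one past the threshold was APOH, a plasma glycoprotein, at 54.5, 54.3 and 37.0 FPKM in siC and 161, 145, 151 and 160.0 FPKM in siIGF2BP1 (1.69 on the log2 scale, adjusted p = 0.00111 by limma).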
